A study of Mus musculus with 20 samples.

Results

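Hmgcs1, Mvd, Idi1, Fdps, Fdft1, Sqle, Cyp51, Tm7sf2 and Ebp encode 9 enzymes of cholesterol synthesis, and their transcripts were followed in whole mouse prostates that regressed after castration and regrew with testosterone. They were chosen by name, as all probe sets whose only platform gene symbol was among the 9, because their level with testosterone was known to lie above that of sham-treated mice. They were covered by 13 probe sets of 12422, and stand for 9 of 8251 genes. C57/B6 mice of 10 to 12 weeks fell into 4 groups of 5. The testosterone group had been castrated 14 days before and then carried a testosterone pellet of 15 mg for 3 days. The other groups were mice castrated 14 days before, mice castrated 3 days before, and sham-treated mice, and none of these carried a pellet. The 14-day castrated mice had no implant, and the testosterone group was killed later after surgery by the 3 days of treatment, so pellet and time cannot be told apart between these groups. The time of the sham treatment was not given. Each mouse gave 1 Affymetrix MG-U74A array, read as MAS5 signals on a linear scale, and each probe set was compared only with itself. The title numbers of the arrays ran by group, so the order of the arrays and the treatment cannot be told apart. On 4 arrays, testosterone replicates 2 and 5 and 14-day castrated replicates 4 and 5, the Gapdh control probe sets had a log2 ratio of 3′ to 5′ signal of 4.53, 3.92, 2.05 and 1.82, a measure of RNA and labelling quality, and the other 16 had -0.53 to -0.08.

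Cholesterol is built from acetyl-CoA in the cytosol and the endoplasmic reticulum. Acetyl units are joined into mevalonate, mevalonate is turned into isoprenoid units, these are joined into squalene, and squalene is closed into lanosterol and trimmed to cholesterol. SREBP transcription factors raise the genes of the whole route when sterols in the endoplasmic reticulum run low, while LXR receptors raise genes of sterol export when oxysterols are plentiful. The prostate is known as an organ rich in cholesterol, and androgens are known to raise lipid synthesis genes in prostate cancer cells.

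Promoter sequence is shown for 4 members that rose together with testosterone. The RefSeq table (GRCm38.p6) held promoters of 6 of the 9 genes (Hmgcs1, Mvd, Idi1, Cyp51, Tm7sf2 and Ebp). The 250 bases before the annotated start were read 5′ to 3′ and searched on both strands for TCACNCCAC, a form of the sterol element bound by SREBP, and for CCAAT and GGGCGG, the motifs of NF-Y and Sp1, which are known to act beside SREBP. Capitals mark every match on either strand.
Hmgcs1, chr13:119690101-119690350, plus strand: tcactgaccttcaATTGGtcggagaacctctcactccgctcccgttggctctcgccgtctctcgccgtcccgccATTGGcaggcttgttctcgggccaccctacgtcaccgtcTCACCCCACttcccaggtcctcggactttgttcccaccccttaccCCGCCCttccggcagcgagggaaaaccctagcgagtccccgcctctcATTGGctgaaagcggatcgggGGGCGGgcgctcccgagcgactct
Mvd, chr8:122443423-122443672, minus strand: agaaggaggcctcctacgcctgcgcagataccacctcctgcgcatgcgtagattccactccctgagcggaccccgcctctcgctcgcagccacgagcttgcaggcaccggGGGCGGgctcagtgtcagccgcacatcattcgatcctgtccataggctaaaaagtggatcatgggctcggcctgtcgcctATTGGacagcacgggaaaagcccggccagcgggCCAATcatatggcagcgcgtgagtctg
Idi1, chr13:8885356-8885605, plus strand: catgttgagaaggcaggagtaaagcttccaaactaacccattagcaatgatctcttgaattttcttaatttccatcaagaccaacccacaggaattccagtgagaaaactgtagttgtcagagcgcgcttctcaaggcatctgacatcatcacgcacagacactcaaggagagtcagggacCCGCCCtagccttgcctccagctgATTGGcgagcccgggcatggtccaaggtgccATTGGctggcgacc
Cyp51, chr5:4104698-4104947, minus strand: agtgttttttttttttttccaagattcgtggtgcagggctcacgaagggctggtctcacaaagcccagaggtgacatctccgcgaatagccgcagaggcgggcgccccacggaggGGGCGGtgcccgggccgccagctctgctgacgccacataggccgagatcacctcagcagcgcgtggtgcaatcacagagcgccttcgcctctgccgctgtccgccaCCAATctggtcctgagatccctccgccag
The sterol element had 1 match among the 6 members, TCACCCCAC in Hmgcs1, starting 137 bases before the start, against 346 of all 32851 windows (1.05%). CCAAT or its reverse complement was present in 6 of 6 members and in 33.8% of all windows, and GGGCGG or its reverse complement in 6 of 6 and in 32.7%. No match overlapped another. The windows were not matched for base composition, and these matches describe letters, not binding.

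**Figure D1:**
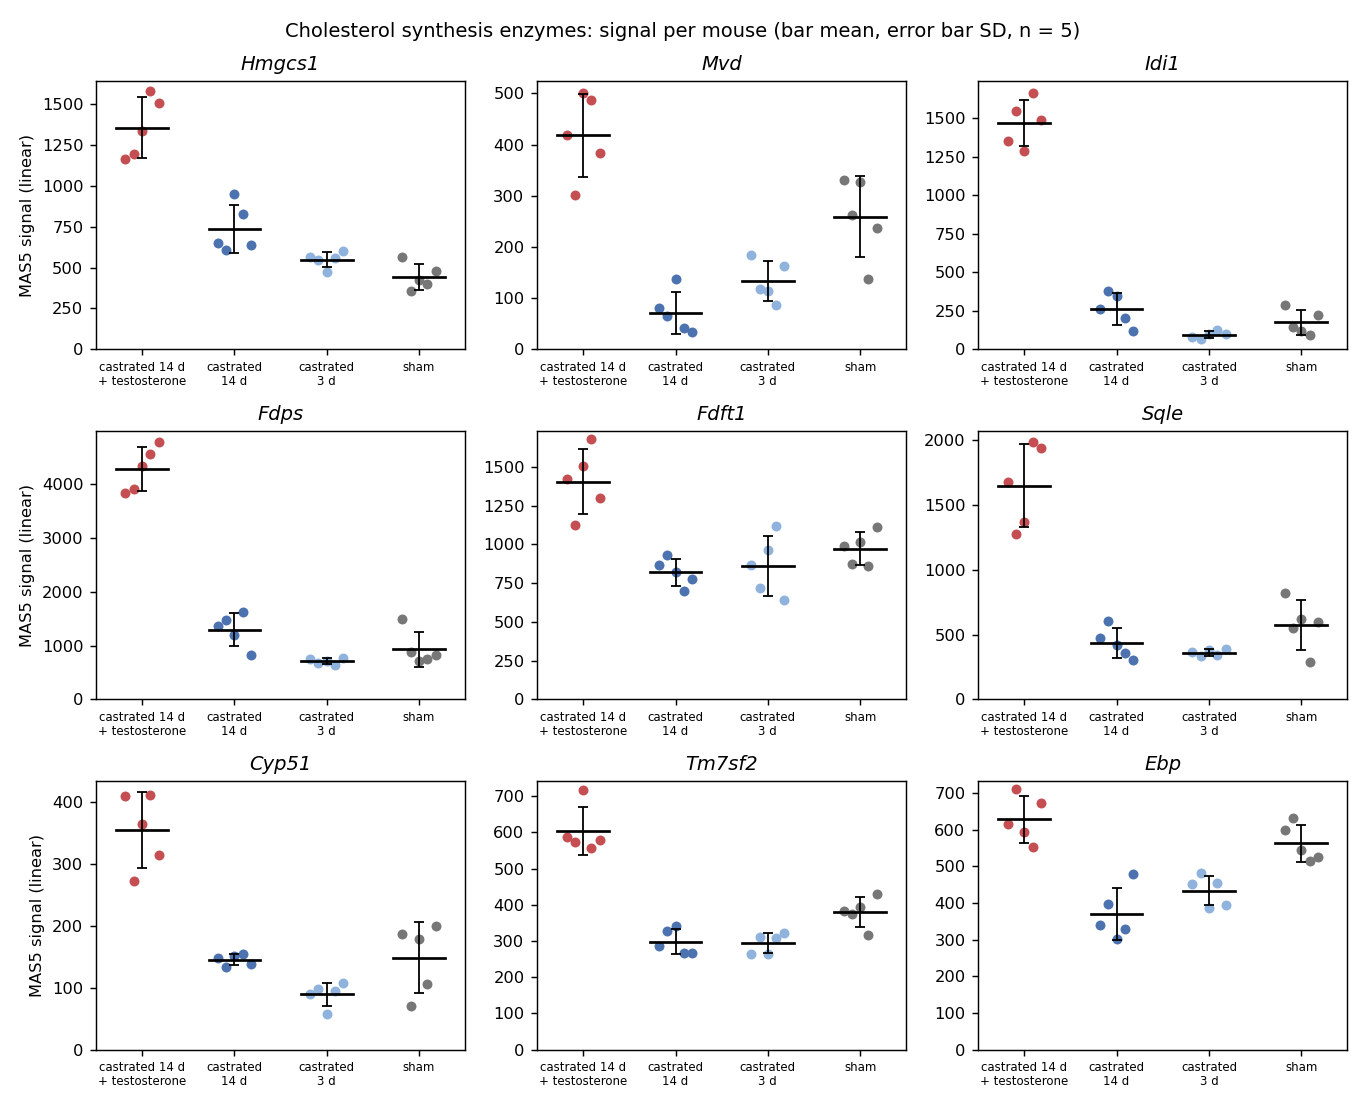
MAS5 signal (linear axis from 0) of the 9 enzymes in each mouse, with the mean (bar) and SD (error bar) of 5 mice per group. All testosterone mice lie above all 14-day castrated mice in every panel, and above all sham mice in every panel but Mvd and Ebp.

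All 9 enzymes were higher in testosterone prostates than in 14-day castrated prostates, and no member's groups overlapped. The share of all probe sets without overlap was not counted for this comparison. Idi1 (5.73-fold) and Mvd (5.49-fold) rose most, followed by Sqle (3.76-fold) and Fdps (3.35-fold). Ebp (1.69-fold) and Fdft1 (1.70-fold) rose least. Of all 6911 probe sets tested, 18.2% were higher and 26.6% lower in this comparison, and the median log2 difference was 1.20 over the 9 enzymes and -0.10 over all probe sets. Mvd and Cyp51 passed the filter on low signals (above 191 on at least 5 arrays) only with the testosterone arrays counted. Outside these arrays Mvd exceeded 191 on 4 and Cyp51 on 1, so the filter favoured a higher testosterone level, for Cyp51 most. The other 7 passed without the testosterone arrays, and these 7 were higher too. The high testosterone values by which the members were chosen also enter this comparison, so its counts are not independent of that choice. When the 4 arrays of high Gapdh ratio were left out, 8 of 8 members tested were higher, and Cyp51 no longer passed the filter. Tests are limma's, with Benjamini-Hochberg adjustment over all probe sets tested, and folds are on the scale of signal plus 12.7. In RNA from whole prostates, more cells of a type and more RNA per cell cannot be told apart.

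Hmgcs1 makes HMG-CoA, the substrate of the rate-limiting reductase. Its signals were 1162, 1196, 1335, 1579.6 and 1506 in testosterone mice, against 653, 607, 951, 827 and 639.5 in 14-day castrated mice. They were 564, 545, 475, 560.2 and 598 in 3-day castrated mice and 563, 358, 426, 398 and 479.5 in sham mice. The lowest testosterone value lay above every other value, and all 14-day castrated values lay above all 3-day castrated and sham values. The log2 difference between testosterone and 14-day castrated mice was 0.88 ± 0.14 (SE, limma adjusted p = 3.19e-05).

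Mvd, mevalonate diphosphate decarboxylase, completes isopentenyl diphosphate, the building block of isoprenoids. It read 418, 302, 501, 487 and 384 in testosterone mice, against 80.9, 64.2, 137, 42.3 and 34 in 14-day castrated mice. The 3-day castrated mice had 184, 118, 114, 86.4 and 163, and the sham mice 331, 262, 327, 137 and 237. The 14-day castrated values were the lowest of the 4 groups and overlapped those of 3-day castrated mice. Their highest, 137.2, lay just under the lowest sham value, 137.3, while testosterone and sham values overlapped. The difference from 14-day castrated mice was 2.46 ± 0.28 on the log2 scale (SE, limma adjusted p = 9.5e-07). Mvd passed the filter only with the testosterone arrays counted, which favoured a higher testosterone level, and this p-value does not account for that.

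Idi1 converts isopentenyl diphosphate into its reactive isomer. Signals were 1352, 1544, 1289, 1661 and 1490.5 in testosterone mice, against 264, 376, 349, 206 and 120.0 in 14-day castrated mice. In 3-day castrated mice they were 82.5, 65.3, 99.7, 126 and 99, and in sham mice 289.6, 145, 120.5, 95.8 and 219.8. The testosterone values stood far above the other 15 arrays, which overlapped each other. The log2 difference was 2.52 ± 0.27 (SE, limma adjusted p = 5.18e-07), rank 46 among 5371 genes tested.

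Fdps joins isoprenoid units into farnesyl diphosphate. The probe set with the highest mean read 3832, 3899, 4332, 4557 and 4769 in testosterone mice, against 1357, 1476, 1195, 1619.6 and 829 in 14-day castrated mice. It read 746, 673, 709.5, 641 and 775 in 3-day castrated mice and 1487, 887, 708, 742 and 827 in sham mice. Testosterone values were clear of all others, and 2 sham mice lay within the range of the 14-day castrated mice. The difference was 1.74 ± 0.18 at this probe set and 1.46 ± 0.17 at another that passed the filter (log2 ± SE, limma adjusted p = 2.35e-07 and 1.01e-06). The remaining 2 Fdps probe sets stayed under 191 on all 20 arrays and were not tested.

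Fdft1, squalene synthase, makes the step that commits isoprenoids to sterols. It had 1419, 1123, 1503, 1678 and 1299 in testosterone mice, against 869, 932, 819, 697 and 778 in 14-day castrated mice. It had 864, 720.2, 965, 1120.4 and 638 in 3-day castrated mice and 991, 876, 1017, 858 and 1114 in sham mice. The gap was narrow: the lowest testosterone value was 1123 and the highest value elsewhere 1120.4. The log2 difference from 14-day castrated mice was 0.76 ± 0.14 (SE, limma adjusted p = 0.000182).

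Sqle oxidises squalene and is known as a second control point of the route. It read 1678, 1272, 1369.9, 1982 and 1937 in testosterone mice, against 474, 608, 417, 362 and 306 in 14-day castrated mice. The 3-day castrated mice had 363, 334, 379.9, 339 and 391, and the sham mice 824, 554, 621, 286 and 599. No testosterone value overlapped another group, the 3-day castrated values were the tightest, and the sham values the widest of the 3 other groups. The log2 difference was 1.91 ± 0.22 (SE, limma adjusted p = 8.34e-07).

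Cyp51 removes a methyl group from lanosterol. It read 409.7, 271, 364, 411 and 314 in testosterone mice, against 148, 133, 152, 154 and 138 in 14-day castrated mice. It read 88.9, 97.1, 58.1, 94.1 and 108 in 3-day castrated mice and 187, 70.1, 179, 105 and 199.6 in sham mice. Testosterone values were above all others, and the sham values spread across both castrated groups. The log2 difference was 1.20 ± 0.21 (SE, limma adjusted p = 0.000125). Cyp51 passed the filter only with the testosterone arrays counted. The filter thus favoured a higher testosterone level, and this p-value does not account for that.

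Tm7sf2, a sterol reductase, acts on the product of Cyp51. It had 588, 575, 718, 558 and 579 in testosterone mice, against 286, 328, 341, 267 and 266 in 14-day castrated mice. It had 263, 309.8, 264, 309 and 322 in 3-day castrated mice and 382, 376, 394, 316 and 429 in sham mice. Here the castrated groups lay together, sham mice mostly above them and testosterone mice above all. The difference from 14-day castrated mice was 0.99 ± 0.10 (log2 ± SE, limma adjusted p = 2.35e-07), and 1.88 ± 0.21 at the other probe set. The other probe set read 284 to 498 in testosterone mice and 29.5 to 119.5 elsewhere, so it passed the filter only through the testosterone arrays and had to be higher there.

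Ebp, a sterol isomerase, acts near the end of the route. Its signals were 614, 711, 592, 552 and 672 in testosterone mice, against 341, 398, 302, 328 and 478 in 14-day castrated mice. They were 452, 481, 387, 454 and 395 in 3-day castrated mice and 599, 632, 545, 514 and 526 in sham mice. Testosterone and sham values overlapped and lay above every castrated value. The log2 difference between testosterone and 14-day castrated mice was 0.76 ± 0.11 (SE, limma adjusted p = 2.16e-05).

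Set against sham mice, the enzymes of regrowing prostates went past the intact level to very different degrees. This difference is part of how the genes were chosen and is described without a test. Mean signals in testosterone mice were 842% of sham for Idi1, 460% for Fdps, 305% for Hmgcs1, 286% for Sqle and 239% for Cyp51. They were 162% for Mvd, 159% for Tm7sf2, 145% for Fdft1 and 112% for Ebp. The log2 difference ± SE was largest for Idi1 (3.08 ± 0.27) and Fdps (2.24 ± 0.18) and smallest for Ebp (0.15 ± 0.11), with a median of 1.26 over the 9 genes and -0.09 over all probe sets tested. The median over the members tested was 1.23 with the 4 arrays of high Gapdh ratio left out. Groups did not overlap for 7 of 9 genes, and 15.4% of all probe sets tested were higher without overlap. Mvd and Ebp were the exceptions, with the lowest testosterone values (302 and 552) inside the sham range. Fdft1, just inside that limit, had 1123 as its lowest testosterone value and 1114 as its highest sham value. By limma, 23.5% of all probe sets tested were higher and 29.5% lower in testosterone than in sham prostates.

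**Figure D2:**
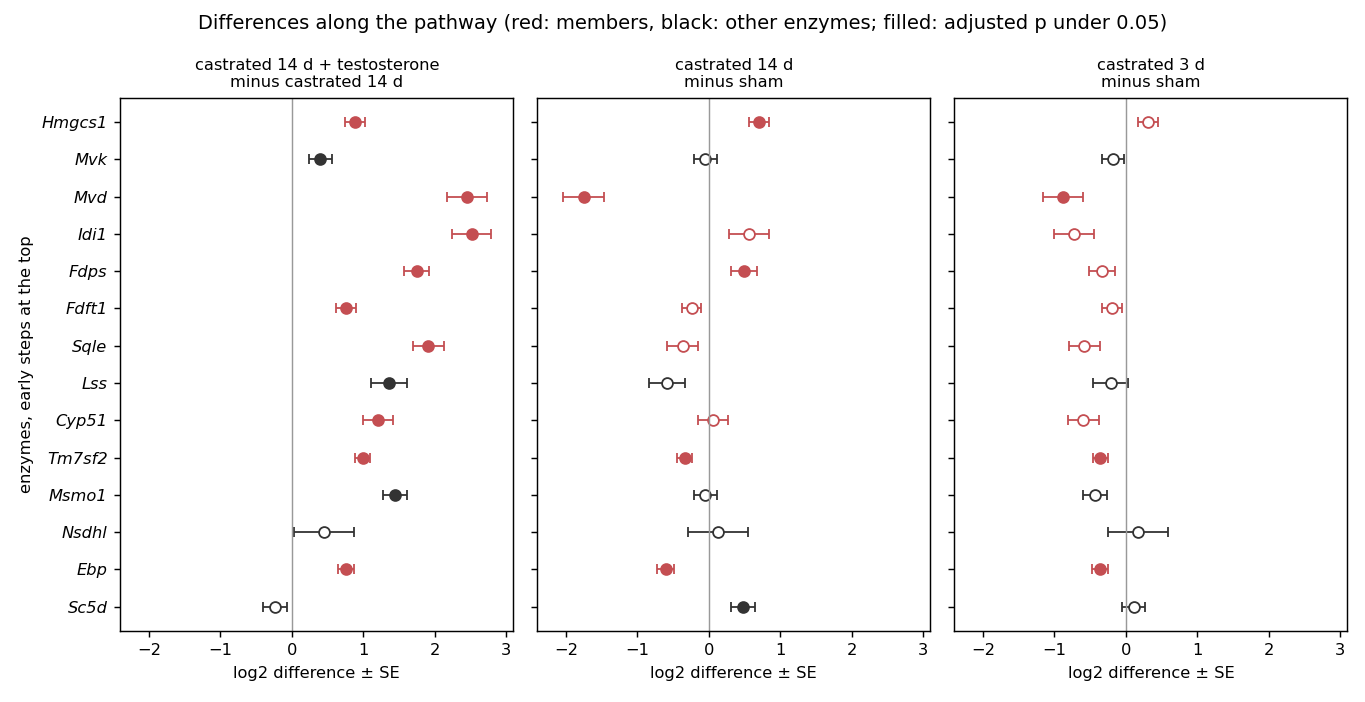
Log2 differences ± SE (x axis) of the members (red) and other enzymes of the route (black), early steps at the top, for testosterone minus 14-day castrated, 14-day castrated minus sham and 3-day castrated minus sham mice. Filled points passed the adjusted threshold: all 9 red points are filled and right of 0 in the left panel, while the middle panel has red points filled on both sides of 0.

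After 14 days of castration without testosterone, 2 of the 9 enzymes were higher and 3 lower than in sham mice, and 4 did not pass. Hmgcs1 (log2 difference 0.70 ± 0.14, adjusted p = 0.000259) and Fdps (0.49 ± 0.18, adjusted p = 0.0269) were higher in 14-day castrated than in sham prostates. Mvd (-1.75 ± 0.28, adjusted p = 3.76e-05), Ebp (-0.61 ± 0.11, adjusted p = 0.000184) and Tm7sf2 (-0.34 ± 0.10, adjusted p = 0.0089) were lower. Mvd was left with 27.7% of its sham signal, the lowest share of the 9, and Hmgcs1 stood at 165%. The 4 others did not pass: Idi1 (0.56, adjusted p = 0.0919), Cyp51 (0.06, adjusted p = 0.842), Fdft1 (-0.24, adjusted p = 0.152) and Sqle (-0.36, adjusted p = 0.165). With 2 higher and 3 lower of 9, beside 28.6% and 24.3% of all probe sets tested, these counts lay near the background. The median was -0.24 over the 9 and 0.01 over all probe sets. Ranges were apart for Hmgcs1, Mvd and Ebp only, for Mvd barely (137.2 against 137.3). The share of all probe sets with ranges apart was not counted here. The Fdps call was not met at its other probe set (0.20, adjusted p = 0.322) and was lost without 14-day castrated replicates 1, 2 or 4 or without sham replicates 3, 4 or 5 (adjusted p = 0.0545 to 0.0802). The second Tm7sf2 probe set gave 0.20 (adjusted p = 0.459). Idi1 passed without 14-day castrated replicate 5 (0.80, adjusted p = 0.0119) or sham replicate 1 (0.76, adjusted p = 0.022), and Sqle without sham replicate 4 (-0.59, adjusted p = 0.0086). With the 4 arrays of high Gapdh ratio left out, Idi1 passed as higher (0.96, adjusted p = 0.008) and Tm7sf2 no longer passed (-0.24, adjusted p = 0.0945).

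At 3 days after castration the calls were few and all downward. Mvd (-0.88 ± 0.28, adjusted p = 0.0407), Ebp (-0.37 ± 0.11, adjusted p = 0.0349) and Tm7sf2 (-0.36 ± 0.10, adjusted p = 0.0234) were lower in 3-day castrated than in sham prostates, and no member was higher. This is 3 lower and 0 higher of 9, beside 4.46% and 9.84% of all probe sets tested, with a median of -0.37 over the 9 and 0.04 over all. For Ebp the groups did not overlap, with 387 to 481 in 3-day castrated and 514 to 632 in sham mice. Sqle (-0.58, adjusted p = 0.0802), Cyp51 (-0.59, adjusted p = 0.0699), Idi1 (-0.73, adjusted p = 0.0857), Fdps (-0.33, adjusted p = 0.239), Fdft1 (-0.19, adjusted p = 0.406) and Hmgcs1 (0.31, adjusted p = 0.146) did not pass. The other Tm7sf2 probe set was lower too (-0.92 ± 0.21, limma adjusted p = 0.00659). Its signals were low and did not overlap, with 29.5 to 41.6 in 3-day castrated and 56.7 to 110 in sham mice. The share of all probe sets without overlap was not counted for this comparison. At the probe sets that stood for the genes, the 3 calls rest on thin margins. Mvd lost its call without 3-day castrated replicates 2, 3 or 4 or sham replicates 1, 2, 3 or 5 (adjusted p = 0.0604 to 0.111). Ebp lost it without 3-day castrated replicates 1, 3, 4 or 5 or sham replicates 1, 2 or 3 (adjusted p = 0.0504 to 0.0903), and Tm7sf2 without 3-day castrated replicates 1 or 3 or sham replicates 3 or 5 (adjusted p = 0.0524 to 0.0647). Without sham replicate 4, Idi1 (-0.90), Sqle (-0.81) and Cyp51 (-0.68) also passed and 6 were lower. Cyp51 passed too without sham replicate 2 (-0.81), and Idi1 without 14-day castrated replicate 5, which enters through the shared spread (-0.73, adjusted p = 0.0423), or all 4 arrays of high Gapdh ratio (adjusted p = 0.0397). Centring on the median ended the call of Ebp (adjusted p = 0.119), and testing every probe set without the filter ended those of Ebp and Mvd (adjusted p = 0.0624 and 0.0625). A pseudocount of 1 ended that of Mvd (adjusted p = 0.053).

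Between 3 and 14 days of castration, before testosterone, part of the enzymes rose. Idi1 (1.29 ± 0.27, adjusted p = 0.00115), Fdps (0.83 ± 0.18, adjusted p = 0.00134), Cyp51 (0.65 ± 0.21, adjusted p = 0.0205) and Hmgcs1 (0.40 ± 0.14, adjusted p = 0.0263) were higher in 14-day than in 3-day castrated prostates. Mvd was lower (-0.87 ± 0.28, adjusted p = 0.019). Fdft1, Sqle, Ebp and Tm7sf2 did not pass, although the other Tm7sf2 probe set was higher (1.12 ± 0.21, adjusted p = 0.000469). The Fdps call was not met at its other tested probe set (0.35 ± 0.17, adjusted p = 0.104). With 4 higher and 1 lower of 9, the background was 20.2% higher and 20.4% lower, and the median was 0.22 over the 9 and -0.01 over all probe sets. The Hmgcs1 call was lost without 14-day castrated replicates 3 or 4 or 3-day castrated replicate 3 (adjusted p = 0.0688 to 0.0749), and that of Cyp51 without 3-day castrated replicate 3 (0.52, adjusted p = 0.0648). Mvd lost its call without 14-day castrated replicates 4 or 5 or 3-day castrated replicate 1 (adjusted p = 0.0544 to 0.0616), and Ebp passed without 14-day castrated replicate 5 (-0.33, adjusted p = 0.0174). With the 4 arrays of high Gapdh ratio left out, Hmgcs1 (0.39, adjusted p = 0.0661) and Mvd (-0.46, adjusted p = 0.202) no longer passed and Ebp did (-0.32, adjusted p = 0.0311). These comparisons share groups with each other and are given side by side, not as separate lines of evidence.

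The mean log2 level of the 9 enzymes, with the sham mean set to 0, summarises each mouse. It was 1.28, 1.13, 1.33, 1.44 and 1.34 in testosterone mice, -0.11, -0.01, 0.03, -0.26 and -0.48 in 14-day castrated mice, and -0.37, -0.48, -0.50, -0.38 and -0.34 in 3-day castrated mice. In sham mice it was 0.38, -0.13, 0.03, -0.41 and 0.14. The order of the group means was testosterone (1.30 ± 0.11), sham (0.00 ± 0.30), 14-day castrated (-0.17 ± 0.21) and 3-day castrated (-0.41 ± 0.07; SD, n = 5 each). The ranges of the lower 3 groups overlapped. Sham mice differed most among themselves: replicate 1 had the highest signal of its group for 5 of 9 enzymes and replicate 4 the lowest for 6 of 9. What sets these sham mice apart was not given in the labels.

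**Figure D3:**
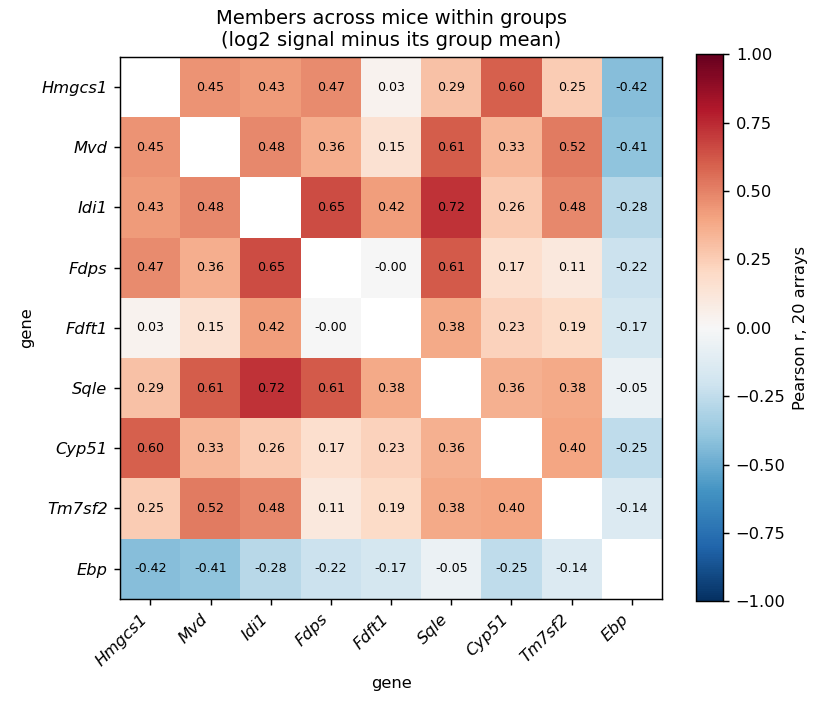
Pearson r (colour and printed value) between members over 20 arrays, after the group mean of each gene was subtracted from its log2 signal. Idi1 and Sqle have the highest r (0.72), and the row of Ebp is negative throughout.

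Within groups, mice with more of 1 enzyme tended to have more of the others, Ebp apart. After subtracting group means, r was positive for 27 of 36 pairs, with a median of 0.31 and a range of -0.42 to 0.72 over 20 arrays. Idi1 with Sqle (0.72), Idi1 with Fdps (0.65), and Sqle with Fdps and with Mvd (0.61 each) were the highest. Ebp had negative r with all 8 others. Values of 1 mouse share an array and its scaling, so these r are a description. With the groups left in, all 36 pairs were positive (median 0.77), and Sqle followed the mean of the other 8 most closely (r = 0.97) and Ebp least (r = 0.58).

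Some other enzymes of the same route were also higher with testosterone. Of 11 listed, 7 were on the array and 5 passed the filter, Lss only through testosterone arrays. In testosterone against 14-day castrated mice, 3 were higher and 0 lower, with a median of 0.46. Msmo1, which removes methyl groups after Cyp51, read 797 to 997 in testosterone mice, against 235 to 416 in 14-day castrated mice (1.44 ± 0.17, limma adjusted p = 1.12e-06). Lss, which closes squalene epoxide into lanosterol, read 212 to 367, against 90.7 to 145 (1.36 ± 0.25, limma adjusted p = 0.000194). Mvk, mevalonate kinase, read 359 to 598, against 238 to 399, with overlap (0.40 ± 0.16, limma adjusted p = 0.0491). Another Mvk probe set, which did not pass the filter, read 146 to 266 in testosterone mice, against 23.3 to 40.7 in 14-day castrated mice, without overlap. The Mvk call was marginal. When testosterone replicates 1, 3 or 4, 14-day castrated replicates 1, 2, 4 or 5, sham replicates 1, 3, 4 or 5, or any 3-day castrated mouse was left out, its adjusted p was 0.0506 to 0.155. Against sham mice, Msmo1 (1.40 ± 0.17, limma adjusted p = 1.79e-06) and Lss (0.78 ± 0.25, limma adjusted p = 0.0137) were higher in testosterone mice. The Lss call ended when only the compared groups were fitted (adjusted p = 0.0606).

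Sc5d and Nsdhl, which act late in the route, did not pass between testosterone and 14-day castrated mice at the probe sets that stood for them. Sc5d, a sterol desaturase, read 212 to 288 in testosterone mice and 214 to 353 in 14-day castrated mice (-0.23 ± 0.16, adjusted p = 0.257), and was higher in 14-day castrated than in sham mice (0.48 ± 0.16, adjusted p = 0.0192). That call was lost without 14-day castrated replicates 1 or 3 or sham replicate 3 (adjusted p = 0.0526 to 0.0668). Another Sc5d probe set that passed the filter read 148 to 265.5 in testosterone mice, against 240 to 360 in 14-day castrated mice, with overlap. Nsdhl, a sterol dehydrogenase, read 872, 124, 978, 939 and 233 in testosterone mice, against 399, 392, 551, 218 and 255 in 14-day castrated mice. Its low testosterone values, 124 and 233, and its low 14-day castrated values, 218 and 255, came from the 4 arrays of high Gapdh ratio. Nsdhl was higher in testosterone mice without these 4 arrays (1.05) and without testosterone replicate 2 alone (0.91, adjusted p = 0.0274). Other Nsdhl probe sets that passed the filter read 169 to 465 and 204 to 602 in testosterone mice. In 14-day castrated mice they read 142 to 266 and 143 to 341, with overlap at each. Dhcr7, the last reductase of the route, did not pass the filter and read 149.5 to 216 in testosterone mice, 54 to 77.9 in 14-day castrated, 111 to 161 in 3-day castrated and 96.2 to 172 in sham mice.

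Among genes of sterol sensing, 0 were higher and 1 was lower in testosterone than in 14-day castrated mice. Of 13 listed, 4 were on the array under a single symbol and 3 passed the filter. Srebf1, which encodes SREBP-1, read 2486 to 2858 in testosterone mice, against 2053 to 2710.4 in 14-day castrated mice (0.15 ± 0.09, limma adjusted p = 0.188). It was higher than in sham mice (1380 to 1764) in all 3 other groups: by 0.71 ± 0.09 with testosterone, 0.56 ± 0.09 after 14 days and 0.48 ± 0.09 after 3 days of castration (log2 ± SE, limma adjusted p = 4.92e-06, 5.9e-05 and 0.00175). Nr1h3, which encodes the LXR-alpha receptor, read 145 to 182 in testosterone mice, against 220.0 to 277 in 14-day castrated mice (-0.52 ± 0.16, limma adjusted p = 0.0101), a call that ended with centring on the median (-0.33, adjusted p = 0.124), with quantile normalization (-0.32, adjusted p = 0.164) and when the 4 arrays with a high Gapdh ratio were dropped (-0.55, adjusted p = 0.0532). Mbtps1, a protease that activates SREBP, did not pass (0.18 ± 0.10, adjusted p = 0.135), but did so without 14-day castrated replicate 5 (0.25, adjusted p = 0.0446) and when the high Gapdh arrays were dropped (0.33, adjusted p = 0.0258). With centring on the median 2 were higher and 0 lower, namely Mbtps1 (0.38, adjusted p = 0.018) and Srebf1 (0.35, adjusted p = 0.0332). Insig1 stayed at 64.6 or below on all arrays.

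**Figure D4:**
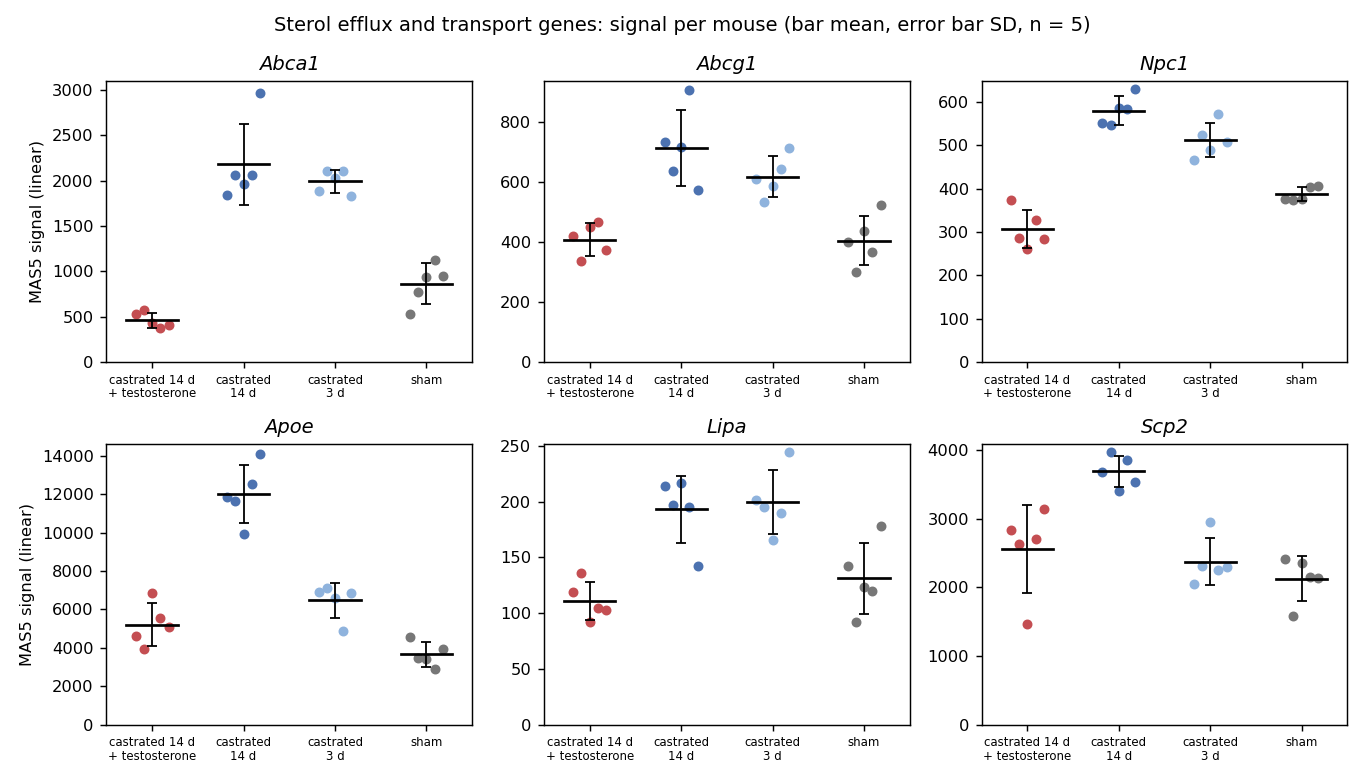
MAS5 signal (linear axis from 0) of 6 genes of sterol efflux and transport in each mouse, with mean (bar) and SD (error bar) of 5 mice per group. Abca1 and Npc1 are lowest in testosterone mice and highest in castrated mice, without overlap between testosterone and castrated groups.

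Genes that export, store or move sterols went mostly the other way. Of 14 listed, 10 passed the filter, and in testosterone against 14-day castrated mice 1 was higher (Npc2) and 7 were lower, with a median of -0.68. Npc2 no longer passed with quantile normalization or with the high Gapdh arrays dropped, and Scp2, among the 7, no longer passed with centring on the median, under which Scarb1 passed as higher. Abca1, the cholesterol exporter that is a classic LXR target, read 525, 568, 426, 373 and 410.2 in testosterone mice, against 1845, 2062, 1962, 2058 and 2970.5 in 14-day castrated mice. It read 1886, 2107, 2025, 2112 and 1835 in 3-day castrated mice and 526, 774, 938, 1130.0 and 953 in sham mice. At this probe set, the one with the highest mean, castrated mice of both times lay above all others. There 4 of 5 testosterone mice lay below all sham mice. The log2 difference between testosterone and 14-day castrated mice was -2.21 ± 0.17 (SE, limma adjusted p = 5.96e-09), and that between testosterone and sham mice -0.86 ± 0.17 (SE, limma adjusted p = 0.000351). In sham replicate 1, which had the highest member mean, Abca1 was lowest (526), and in sham replicate 4, with the lowest member mean, Abca1 was highest (1130.0). The other sham mice went the other way, with Abca1 at 774, 938 and 953 for member means of -0.13, 0.03 and 0.14. Apoe, on the same list, was highest in sham replicate 1 (4575) and lowest in sham replicate 4 (2882). Another Abca1 probe set that passed the filter separated the groups less. It read 92.3 to 535 in 14-day castrated mice, overlapping testosterone (10.2 to 133) and sham mice (111 to 212.5). In 3-day castrated mice it read 301 to 450. Its lowest testosterone and 14-day castrated values came from the 4 arrays of high Gapdh ratio.

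Apoe (-1.22 ± 0.15), Npc1, which carries cholesterol out of lysosomes (-0.90 ± 0.09), and Abcg1, another exporter (-0.78 ± 0.14), were also lower with testosterone than in 14-day castrated mice (log2 ± SE, limma adjusted p = 2.28e-06, 1.54e-07 and 0.000161). After 14 days of castration 7 of the 10 were higher and 2 lower than in sham mice (median 0.55), and after 3 days 5 were higher and 0 lower (median 0.43). Macrophages also express several of these genes. The 11 macrophage markers on the array summed to 5917 to 8089 in testosterone, 12594 to 20129 in 14-day castrated, 6904 to 8531 in 3-day castrated and 2821 to 3848 in sham mice, and 9 of the 9 that passed the filter were lower with testosterone than after 14 days of castration (8 with centring or quantile normalization). Their part in the result was not tested.

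Neighbouring lipid routes changed in part. In testosterone against 14-day castrated mice, 5 of 10 fatty acid synthesis genes were higher, among them Acly (0.56 ± 0.15) and Elovl5 (0.50 ± 0.14), and 1, Thrsp, was lower (-1.32 ± 0.24; limma adjusted p = 0.00471, 0.00629 and 0.000181), with a median of 0.31. Elovl6 (0.60 ± 0.19), among the 5, passed the filter only through the testosterone arrays. With quantile normalization 3 of the 10 were higher. Of 5 genes that use the isoprenoids made by Fdps and Idi1 for other products, 0 were higher and 1, Ggps1, was lower (-0.42 ± 0.15, limma adjusted p = 0.0273), and that call ended with centring on the median and with quantile normalization.

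The genes most like the members were taken by their correlation with them. Among 5362 other genes tested, the 10 with the highest r with the members' mean over 20 arrays were Cdc20 (0.97), Aldh1a1 (0.97), Dhrs1 (0.96), Nek2 (0.96), Tcf19 (0.96), Atp4a (0.96), Racgap1 (0.95), Cdk1 (0.95), Bub1 (0.95) and Msmo1 (0.95). Of these 10, Cdc20, Cdk1 and Bub1 are on the cell cycle list and Msmo1 on that of cholesterol synthesis. Differences between the 4 groups enter these r. Cdc20, a mitotic regulator, averaged 2849 ± 249 in testosterone, 224 ± 15.2 in 14-day castrated, 191 ± 25.4 in 3-day castrated and 245 ± 54.4 in sham mice (SD, n = 5 each). Cell cycle genes rose with the members: all 17 that passed the filter, 6 of them only through testosterone arrays, were higher in testosterone than in 14-day castrated mice, and the 18 on the array summed to 21542 to 25443 in testosterone, 3886 to 4633 in 14-day castrated, 3751 to 3982 in 3-day castrated and 3396 to 4146 in sham mice.

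Other cell types also shifted between these groups. Adipocyte markers summed to 2168 to 2998 in testosterone, 4699 to 6964 in 14-day castrated, 2550 to 4254 in 3-day castrated and 1798 to 3084 in sham mice. Smooth muscle markers summed to 37067 to 40441, 16451 to 21681, 19570 to 27686 and 25900 to 31656 in the same order of groups. Luminal epithelial markers summed to 39663 to 45217 in testosterone and 38520 to 54440 in 14-day castrated mice, ranges that overlapped. The basal markers Krt5, Krt14 and Krt15 did not pass the filter. The basal marker that did, Trp63, read 278 to 341 in testosterone mice, against 363 to 583 in 14-day castrated mice. It was called lower there (log2 difference -0.49), but not with centring on the median, with quantile normalization or without the 4 arrays of high Gapdh ratio. Trp63 was higher in 14-day castrated than in sham mice (0.81). Seminal vesicle secretion genes summed to 40468 to 52168 in testosterone mice and, with a wide spread, to 3169 to 32149 in 14-day castrated mice. They summed to 41766 to 58538 in 3-day castrated and 49365 to 61970.5 in sham mice. Of 4 tested, 3 were higher with testosterone than after 14 days of castration (2 with quantile normalization). All 4 were lower in 14-day castrated than in sham mice. Skeletal muscle markers (12016 to 33621 in testosterone and 3343 to 30426 in 14-day castrated mice) varied widely between mice of a group. The part of these cells, and of dividing cells, in the rise of the 9 enzymes was not tested.

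Scaling matters for the counts over all probe sets. Centring each array on its median moved the median log2 difference between testosterone and 14-day castrated mice from -0.10 to 0.09, and the calls from 1259 higher and 1840 lower to 1827 higher and 1024 lower. Between testosterone and sham mice the calls were 1623 higher and 2041 lower, and 2025 higher and 1206 lower after centring. The 9 members were higher than in 14-day castrated mice under both, with a median of 1.20 as deposited and 1.40 after centring.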

How the data were processed

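Whole prostates of 20 mice in 4 groups of 5, assigned from the labels, were measured on 1 array each. The authors deposited linear intensities, with 1 MAS5 (version 5.0) signal for each probe set, per the submitters' processing notes. Once the lowest and highest 2% of probe sets were set aside, array means were 500.2 to 500.3, so the arrays had been scaled alike. Scanner settings are not given in the sources used.

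The table held 12488 probe sets, of which 66 controls were left out. Platform annotation gave 10833 probe sets 1 symbol, 396 several and 1193 none, and a RefSeq table (GRCm38.p6), which matched 10817, changed none. Signals were analysed as log2(signal + 12.7), with the 10th percentile of the table as pseudocount and no normalization added. The test took in the 6911 probe sets (55.6%) that exceeded 191, the median of the table, on 5 or more of the 20 arrays. All groups entered 1 limma fit (limma 3.58.1, R 4.3.3; two-sided, Benjamini-Hochberg, threshold 0.05), which was first tested on simulated data. The probe set with the highest mean stood for a gene. Array medians were 154 to 224, no pair of arrays shared over 0.368% of values, and the number of arrays limits precision.

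The members and the gene lists were chosen with earlier results of these data known. Named were all members, all measured genes of the lists on cholesterol synthesis and sterol sensing, up to 4 called genes of the other lists by size of change against 14-day castrated mice, and the 10 genes most like the members. Npc2, Scp2, Scarb1, Lipa, Trp63, Krt5, Krt14 and Krt15 were named after their values were seen. The labels name no culture, batch or pairing, and each array is a separate mouse. Alternatives were the pseudocount, the filter, the scaling, fits of only the compared groups, every probe set, leaving out the 4 arrays of high Gapdh ratio, and leaving out each mouse.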

Additional observations from a re-analysis of the deposited data

Results flagged for a closer look

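In 76 groups of 5 mice examined (members and other genes of the route), 5 held 1 mouse whose signal stood far from the others, and chance alone marks about 1 in 20 such groups. Tm7sf2 read 718.3 in testosterone replicate 3 and 557.8 to 588.4 in the other testosterone mice. Msmo1 read 996.6 in testosterone replicate 5 and 797.2 to 826.5 in the others. Mvk read 238.4 in 14-day castrated replicate 5 and 383.7 to 398.8 in the others, and without that mouse Mvk no longer passed between testosterone and 14-day castrated mice (0.26, limma adjusted p = 0.155). Lss read 145 in 14-day castrated replicate 2, against 90.7 to 93.2 in the others, and Sc5d read 157.3 in 3-day castrated replicate 1, against 223.5 to 256.5 in the others.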

How the results depend on the processing

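The rise of the single members in testosterone against 14-day castrated mice kept its direction and its side of the threshold in 250 of 250 combinations of gene and setting, and over all 4 tested comparisons 937 of 1000 did. There 39 lost the threshold, 13 gained it and 11 changed sign. No paired analysis was made, since the labels name no pairing and each array is a separate mouse. The replicate numbers used here follow the order of the samples within each group and link no mice between groups. Signals near background and 5 mice a group limit what can be told for low members such as Cyp51 and Mvd. The cause of the changes was not tested.

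The count of members higher in 14-day castrated than in sham mice was 2, and 1 when only the compared groups were fitted, with 1 to 3 when a mouse was left out. The count lower in 3-day castrated than in sham mice was 3, and 1 without the filter, with 0 (without 3-day castrated replicate 3 or sham replicate 3) to 6 (without sham replicate 4). Between 14-day and 3-day castrated mice 4 were higher, and 2 once the 4 high Gapdh arrays were dropped, with 2 (without 3-day castrated replicate 3) to 4 when a mouse was left out, and 1 was lower, with 0 to 1. The median difference of the members between testosterone and sham mice was 1.26, and 1.10 with a pseudocount of 43.2, 1.13 with a filter on the mean, 1.43 with median centring, 1.44 with quantile normalization, 1.55 over every probe set and 1.04 to 1.38 when a mouse was left out.

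Among the members and the listed genes of cholesterol synthesis and sterol sensing, signs turned under these alternatives only for differences that did not pass the threshold. Between 14-day castrated and sham mice, the difference ranged from -0.162 to 0.178 for Cyp51, from -0.157 to 0.123 for Msmo1, from -0.102 to 0.0874 for Mvk and from -0.041 to 0.281 for Nsdhl when a mouse was left out. Without the high Gapdh arrays it was 0.0518 for Msmo1 and 0.0868 for Mvk. Between 14-day and 3-day castrated mice, leaving out a mouse gave -0.15 to 0.0499 for Fdft1, -0.0322 to 0.0535 for Tm7sf2 and -0.208 to 0.114 for Nsdhl. The same difference was 0.0452 for Fdft1, -0.0065 for Mbtps1 and 0.305 for Nsdhl without the high Gapdh arrays, and for Tm7sf2 it was -0.0106 with median centring and -0.0012 with quantile normalization. Between testosterone and sham mice, Nr1h3 gave 0.0752 with median centring, 0.105 with quantile normalization and -0.235 to 0.0403 when a mouse was left out. Between 3-day castrated and sham mice, leaving out a mouse gave -0.0181 to 0.257 for Nr1h3 and -0.0378 to 0.216 for Sc5d.

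The median r within groups was 0.31, and 0.20 to 0.35 under the alternatives.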
